A study of Mus musculus with 89 samples.

Results

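The subject is 40 mouse genes of DNA replication and mitosis, followed through 13 comparisons of liver or hepatocyte RNA. The members were chosen by symbol from a named list, and all 40 were found in every table, of 42687 genes in the 10 tables keyed by Ensembl identifier and 23306 in the 3 keyed by RefSeq symbol. Of the 40, 19 act in replication and its control (9 of helicase loading, 6 of the fork and nucleotide supply, 4 regulators of the step from G1 to S phase) and 21 in mitosis (6 drivers of G2 and M phase, 7 kinases and checkpoint proteins, 8 chromosome and spindle proteins). RNA sequencing was done on 89 samples in 23 groups, and it asked what tumours outside the liver, and particles shed by tumours, do to liver gene expression.

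In all 5 tumours were studied, and the suffix Tb marks livers of mice that carried one. B16F10 and B16F1 melanoma cells were put under the skin of C57BL/6 mice for 3 weeks, giving B16F10-Tb (n = 3, against PBS-1, n = 3) and B16F1-Tb (n = 5, against PBS-4, n = 5). K7M2 osteosarcoma cells were placed in the tibia of BALB/c mice for 4 weeks (K7M2-Tb, n = 5, against PBS-2, n = 5). In BALB/c mice, 4T1 cells and 67NR cells, both mammary carcinoma lines, were placed in the mammary fat pad for 4 weeks, giving 4T1-Tb (n = 3, against PBS-5, n = 3) and 67NR-Tb (n = 3, against PBS-3, n = 3). Control mice had the same injection of PBS without cells. Each tumour came from 1 cell line, and B16F1 is known as a less metastatic relative of B16F10, as 67NR is of 4T1.

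Extracellular vesicles and particles (EVPs) were given to mice without tumours, as 10 µg in 100 µl of PBS into a vein every other day for 4 weeks. Those named CL-EVPs were shed by cells in culture, those named TE-EVPs by explanted tumour tissue. The C57BL/6 groups were B16F10-TE-EVPs (n = 5, against PBS-6, n = 5) and B16F10-CL-EVPs (n = 5, against PBS-8, n = 5), and the BALB/c groups were K7M2-TE-EVPs and K7M2-CL-EVPs (n = 3 each), which share the control group PBS-7 (n = 3). B16F10_exomeres (small particles without a membrane), B16F10_Exo-S (small exosomes) and B16F10_Exo-L (large exosomes) went into C57BL/6 mice (n = 4 each) and share PBS-10 (n = 4). Wild-type primary hepatocytes were cultured with TNFα or PBS for 24 hours (n = 3 each); the labels give neither their strain nor the dose. Nothing states whether the samples of a group were processed separately, so each p-value measures the spread between these samples only, which may be partly technical.

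Before a cell divides, a ring helicase made of the MCM proteins is loaded on DNA by CDC6 and CDT1, and E2F transcription factors raise the genes of helicase, fork and nucleotide supply. Later another wave of genes, driven through FOXM1 and the DREAM and MuvB complexes, supplies the cyclins, kinases and kinesins of mitosis. Adult hepatocytes rarely divide, and those that enter the cycle often become polyploid. Liver also holds immune and blood precursor cells that divide, and in bulk RNA more cells of a type and more RNA per cell cannot be told apart.

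The tables used here hold the result of each comparison, and values per sample were not analysed here, so group values are given. In what follows a base mean, a log2 fold change, the error after ± and an adjusted p-value are those of the authors' deposited table of the comparison named, unless a value is called unshrunken or implied. Shrinkage pulls the deposited log2 fold changes toward 0 but leaves the p-values as they were. A gene is said to have risen or fallen where the authors' adjusted p (DESeq2, Benjamini-Hochberg over the table) was under 0.05. An implied level is the mean normalised count of a group worked out from the base mean and the unshrunken effect; it is approximate, has no error of its own and is comparable only within 1 comparison. Of the 520 values (40 genes in 13 tables) 49 had no adjusted p, and 22 members were tested in every table. Depth per sample is unknown. The liver label held: 10 hepatocyte markers, albumin among them, summed to between 140474 and 186750 CPM (the base mean scaled by the summed base means of the table) in the livers, and to 91091 CPM in the hepatocytes. The 40 genes together made up 202 to 455 CPM in the livers and 1185 CPM in cultured hepatocytes.

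Promoter sequence is shown, because it differs between the replication and mitosis arms of the program, for 5 members whose values recur below. RefSeq promoters (GRCm38.p6; 250 bases before to 50 bases after the start) were present for 31 of the 40 members. Capitals mark matches, on either strand, to E2F sites (TTTCGCGC or TTTGGCGC), to the cell cycle homology region, or CHR (TTTGAA or TTCGAA), and to CCAAT boxes (CCAAT, or ATTGG on the other strand); the E2F words can overlap when they face each other. Mcm5 (chr8:75109259-75109558, plus strand), Mcm6 (chr1:128359656-128359955, minus strand), Cdk1 (chr10:69352863-69353162, minus strand), Plk1 (chr7:122159185-122159484, plus strand) and Mki67 (chr7:135716330-135716629, minus strand) are printed 5′ to 3′ along the gene's own strand.
Mcm5: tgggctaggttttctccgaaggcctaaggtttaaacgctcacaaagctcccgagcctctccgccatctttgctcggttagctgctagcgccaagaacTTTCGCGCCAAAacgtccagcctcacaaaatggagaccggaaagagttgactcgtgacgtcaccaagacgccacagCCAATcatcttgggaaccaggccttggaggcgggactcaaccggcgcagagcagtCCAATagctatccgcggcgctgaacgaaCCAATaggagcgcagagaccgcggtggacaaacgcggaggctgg
Mcm6: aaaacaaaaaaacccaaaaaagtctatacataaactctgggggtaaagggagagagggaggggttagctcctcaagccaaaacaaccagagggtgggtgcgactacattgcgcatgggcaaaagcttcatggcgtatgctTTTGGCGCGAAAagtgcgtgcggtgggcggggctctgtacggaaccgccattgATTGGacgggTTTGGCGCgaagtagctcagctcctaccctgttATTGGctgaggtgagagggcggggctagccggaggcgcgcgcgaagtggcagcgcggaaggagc
Cdk1: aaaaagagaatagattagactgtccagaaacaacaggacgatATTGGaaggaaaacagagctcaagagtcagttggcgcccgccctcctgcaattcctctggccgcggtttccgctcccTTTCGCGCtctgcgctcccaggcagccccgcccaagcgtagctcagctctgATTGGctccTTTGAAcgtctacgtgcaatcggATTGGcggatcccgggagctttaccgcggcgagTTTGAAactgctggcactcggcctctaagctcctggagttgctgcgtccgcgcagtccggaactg
Plk1: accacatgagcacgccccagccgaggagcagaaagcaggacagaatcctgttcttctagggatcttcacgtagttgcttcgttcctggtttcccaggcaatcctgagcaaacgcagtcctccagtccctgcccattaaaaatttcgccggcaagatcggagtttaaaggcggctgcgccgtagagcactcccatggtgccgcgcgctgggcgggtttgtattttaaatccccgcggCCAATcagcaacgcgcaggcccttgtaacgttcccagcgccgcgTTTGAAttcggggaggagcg
Mki67: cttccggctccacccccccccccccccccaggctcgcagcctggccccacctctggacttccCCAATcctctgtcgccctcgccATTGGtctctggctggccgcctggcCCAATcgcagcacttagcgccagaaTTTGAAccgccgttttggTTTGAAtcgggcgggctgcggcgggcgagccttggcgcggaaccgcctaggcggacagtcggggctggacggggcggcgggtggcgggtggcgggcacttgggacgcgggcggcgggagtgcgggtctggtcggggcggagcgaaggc
An E2F word stood in 6 of 15 replication promoters (40%: Mcm3, Mcm5, Mcm6, Mcm7, Cdt1 and Uhrf1), in 1 of 16 mitosis promoters (6.25%: Cdk1) and in 0.929% of 27025 mouse promoters. A CHR word stood in 2 of 15 replication promoters (13.3%) and 12 of 16 mitosis promoters (75%), against 21.7% of all promoters. CCAAT was held by 9 of 15 (60%) and 15 of 16 (93.8%), against 41.1% of all. Cdk1 alone among the 5 shown has both an E2F word and CHR words, and Mcm5 and Mcm6 have facing E2F words that overlap. These are matches of letters only.

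Most of the 40 genes rose in the livers of mice with B16F10, K7M2 or 4T1 tumours, and some rose with the exosome classes of B16F10 and in TNFα-treated hepatocytes (plot of deposited fold changes by gene and comparison). In 4T1-Tb 37 of 40 members rose and none fell, where 22.4% of all tested genes rose and 21.0% fell. In K7M2-Tb 35 of 40 rose and 1 fell, against 15.1% of all genes higher and 12.9% lower. In B16F10-Tb 29 of 36 tested rose and 1 fell, against 6.48% higher and 5.25% lower. The median deposited log2 fold change of the members was 2.58, 1.44 and 1.38 in these 3 comparisons, where the median of all tested genes was 0.01, -0.01 and -0.02. All 3 shares of members lie several times above the share of all genes.

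Fewer members were called in the livers of mice with the less metastatic relatives. In B16F1-Tb 6 of 40 members rose (15%) and 3 fell, against 17.2% and 17.1% of all genes, so the count says nothing particular of these genes. In 67NR-Tb 6 of 36 rose (16.7%) and none fell, against 9.14% and 9.42%. The median deposited log2 fold change of the tested members was 0.23 in B16F1-Tb and 0.14 in 67NR-Tb. At an unadjusted p under 0.05 (DESeq2) 10 members were higher and 4 lower in B16F1-Tb, and 7 higher and 0 lower in 67NR-Tb. Summed implied levels, which were not tested, cover 17 of the 21 mitosis members in B16F1-Tb and 18 in 67NR-Tb. For these they went from 564 to 1068 (1.89 times) in B16F1-Tb and from 630 to 850 (1.35 times) in 67NR-Tb. Those of the replication members changed 0.67 and 1.05 times. The 6 that rose in B16F1-Tb were Mcm3, Mcm6, Rrm2, Ccne2, Mki67 and Hmgb2, and the 3 that fell were Tyms, Tk1 and Ccnd1.

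Among the particle groups, with B16F10_Exo-L 22 of 40 members rose, against 8.65% of all genes higher and 4.10% lower. With B16F10_Exo-S 21 of 40 rose, against 6.84% and 2.92%. With B16F10_exomeres 6 of 40 rose (15%), against 4.26% and 0.670%; the 3 classes share their controls, so their counts are not independent. The medians of the deposited, shrunken values were 0.60, 0.36 and 0.04. Shrinkage differs in strength between comparisons, so these medians do not compare the size of the rises. With exomeres 14 of the 40 were higher and 0 lower at an unadjusted p under 0.05 (DESeq2).

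With B16F10-CL-EVPs 11 of 40 members rose (27.5%), against 2.34% of all genes higher and 1.44% lower. With the adjustment taken over every gene with a p-value, 5 of the 11 are left, without Mcm5, Uhrf1, Rrm1, Ccna2, Aurkb and Bub1b. That adjustment also ends the calls of Ccnd1 in K7M2-Tb, Foxm1 with exomeres, E2f1 and Kif11 with Exo-S, and Pcna in hepatocytes. With B16F10-TE-EVPs 3 of 35 tested rose (8.57%), near the background of 5.23% higher and 3.37% lower. For K7M2 particles the authors' filter left only 22 members tested, 7 of them mitotic. There no member rose with K7M2-TE-EVPs (background 1.37% higher, 2.67% lower) or with K7M2-CL-EVPs (0.626% higher, 0.854% lower), and Tk1 fell with K7M2-CL-EVPs. At an unadjusted p under 0.05, 1 of the 22 was lower with K7M2-TE-EVPs, and 2 were higher and 1 lower with K7M2-CL-EVPs.

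In hepatocytes treated with TNFα 21 of 40 members rose and 1 fell, against 16.4% of all genes higher and 13.2% lower. The calls were uneven: 17 of 19 replication members rose but 4 of 21 mitosis members, a share of 19.0% that lies near the background. Summed implied levels went from 8271 to 11202 over 17 mitosis members (1.354 times) and from 44531 to 55838 over 19 replication members (1.254 times). The replication sum holds Rrm2, which fell from an implied 6537 to 4667, and the 9 helicase genes alone changed 1.418 times. Such sums follow the most abundant genes and were not tested, so they do not decide whether the arms differed. The largest error was 0.28 among the mitosis members not called and 0.17 among the replication members that rose. B16F10_exomeres had a like split of calls, with 5 of 19 and 1 of 21. In 4T1-Tb, K7M2-Tb and B16F10-Tb every tested mitosis member rose (21 of 21, 21 of 21 and 17 of 17), beside 16, 14 and 12 of 19 replication members. No test compared the arms within a comparison. In the 7 comparisons where no member fell other than the K7M2 particle ones, none was lower at an unadjusted p under 0.05 (DESeq2) either.

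**Figure D1:**
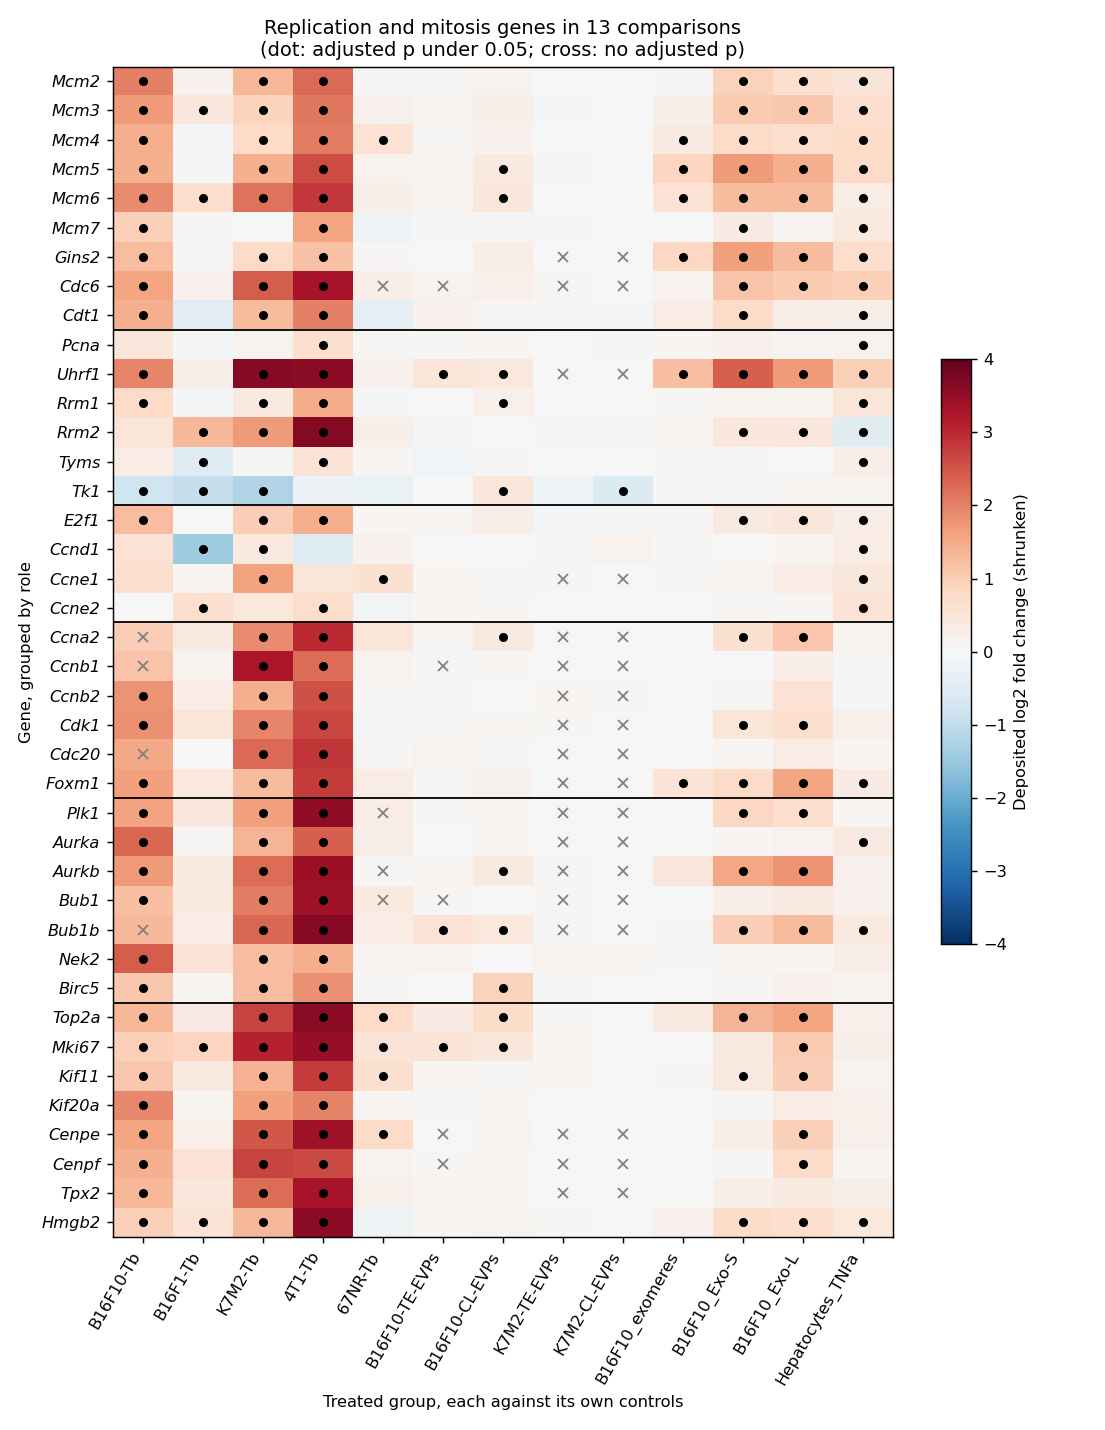
Deposited log2 fold change (colour) of each of the 40 members (rows, grouped by role) in each of the 13 comparisons (columns, named by treated group). Dots mark an adjusted p under 0.05 and crosses genes with no adjusted p; the tumour columns B16F10-Tb, K7M2-Tb and 4T1-Tb are red nearly throughout, while Tk1 is blue with a dot in 4 columns.

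**Figure D2:**
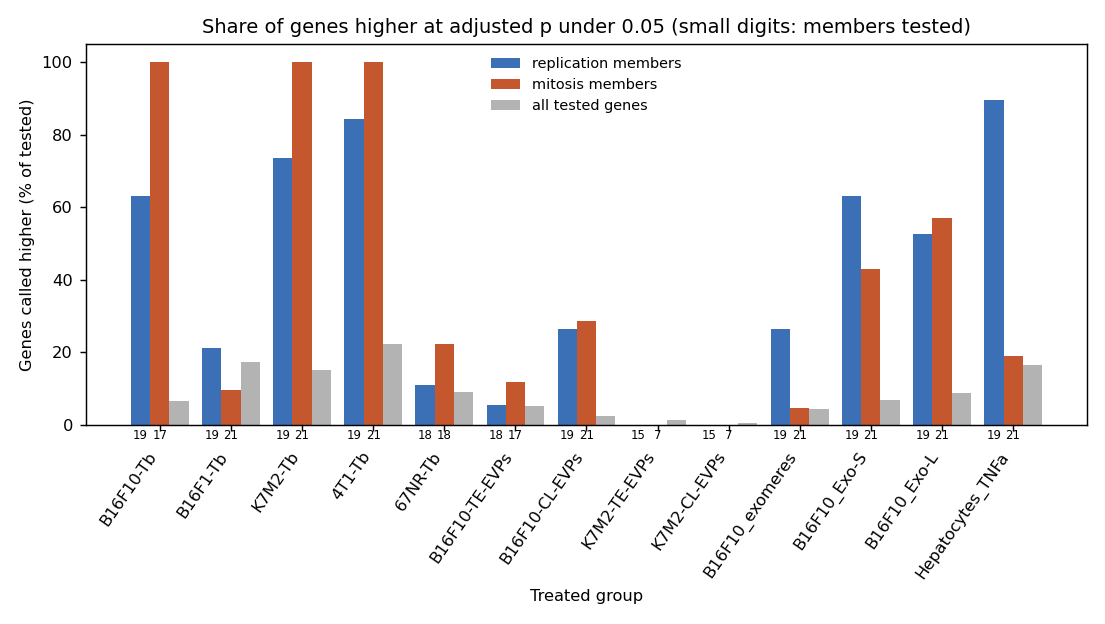
Percent of tested genes called higher (adjusted p under 0.05) for replication members, mitosis members and all tested genes in each comparison, with the number of members tested below the bars. Bars for mitosis members reach 100% in 3 tumour comparisons, and in hepatocytes the replication bar (89.5%) stands far above the mitosis bar (19.0%).

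The helicase and its loaders were the most regular group. All 9 rose in B16F10-Tb, 4T1-Tb, B16F10_Exo-S and the TNFα-treated hepatocytes, 8 of 9 in K7M2-Tb, 7 of 9 with B16F10_Exo-L and 4 of 9 with B16F10_exomeres. Mcm2, an MCM ring subunit, went from an implied level of 89.6 in PBS-1 to 557 in B16F10-Tb, a deposited log2 fold change of 2.00 ± 0.27 (adjusted p 1.02e-10). The same gene reached 2.27 ± 0.16 in 4T1-Tb (adjusted p 2.74e-45) and 1.33 ± 0.23 in K7M2-Tb (adjusted p 1.90e-08), and in B16F1-Tb it stood at 0.17 ± 0.23 (adjusted p 0.470). Its rises were thus several times their errors in 3 tumour comparisons and within the error in B16F1-Tb.

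Mcm5, a ring subunit whose promoter with its facing E2F words is printed above, rose with all 3 B16F10 particle classes. Its implied level was 66.0 in PBS-10, 126 with B16F10_exomeres, 222 with B16F10_Exo-S and 185 with B16F10_Exo-L. The deposited log2 fold changes were 0.87 ± 0.18 (adjusted p 1.81e-05), 1.72 ± 0.18 (adjusted p 2.77e-22) and 1.45 ± 0.17 (adjusted p 1.30e-15). All 3 classes lay above their shared controls, and Exo-S against Exo-L was not tested. B16F10-CL-EVPs gave 0.40 ± 0.26 (adjusted p 0.0344) and B16F10-TE-EVPs 0.12 ± 0.19 (adjusted p 0.350).

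Mcm6, another ring subunit, rose in 9 of the 13 comparisons, as many as any member. Implied levels went from 150.3 to 953 in B16F10-Tb, from 45.0 to 403 in 4T1-Tb, from 33.9 to 160.1 in K7M2-Tb and from 132 to 243 in B16F1-Tb. Deposited log2 fold changes were 1.89 ± 0.29, 2.84 ± 0.26, 2.16 ± 0.30 and 0.71 ± 0.29, all past the threshold. In 67NR-Tb it stood at 0.25 ± 0.17 (adjusted p 0.322), so it rose in 4 of the 5 tumour comparisons.

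Mcm7, the ring subunit whose gene also hosts a microRNA cluster, broke ranks in K7M2-Tb, with a deposited log2 fold change of 0.00 ± 0.12 (adjusted p 0.992) where the other 8 of the group rose. In 4T1-Tb it rose by 1.59 ± 0.13 (adjusted p 2.47e-30). Mcm4 was the only helicase gene higher in 67NR-Tb, at 0.57 ± 0.13 (adjusted p 0.000511).

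Among the loaders, Cdc6 rose by 3.28 ± 0.33 in 4T1-Tb (adjusted p 2.78e-21), 2.42 ± 0.44 in K7M2-Tb and 1.58 ± 0.31 in B16F10-Tb. Cdt1, which brings MCM rings to origins, rose by 2.02 ± 0.22 in 4T1-Tb (adjusted p 1.06e-18) and stood at -0.41 ± 0.24 in B16F1-Tb (adjusted p 0.0566) and -0.35 ± 0.18 in 67NR-Tb (adjusted p 0.159). Gins2, part of the active helicase at the fork, rose with B16F10_exomeres (0.83 ± 0.44, adjusted p 0.0121), B16F10_Exo-S (1.63 ± 0.33) and B16F10_Exo-L (1.27 ± 0.33). Cdt1 thus stood below 0 in both livers with a less metastatic tumour, short of the threshold each time.

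Uhrf1, which copies DNA methylation to the new strand, gave the widest set of rises of the fork genes. It rose in 9 of 13 comparisons and in 5 of the 7 with particles, more than any other member there. The implied level was 19.6 in PBS-10, 49.4 with B16F10_exomeres, 108 with B16F10_Exo-S and 68.1 with B16F10_Exo-L, and the deposited log2 fold changes were 1.22 ± 0.28, 2.39 ± 0.29 and 1.71 ± 0.27. In K7M2-Tb the implied level went from 8.31 to 108 (3.63 ± 0.38, adjusted p 4.16e-22). It was also among the 3 members that rose with B16F10-TE-EVPs (0.48 ± 0.43, adjusted p 0.0193).

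Pcna, the sliding clamp, is read as a proliferation marker but passed the threshold in 2 of 13 comparisons. Its deposited log2 fold change did so in 4T1-Tb (0.66 ± 0.08, adjusted p 3.34e-14) and in the hepatocytes (0.13 ± 0.06, adjusted p 0.0369). In B16F10-Tb it was 0.46 ± 0.20 (adjusted p 0.117). Known Pcna pseudogenes can share its reads, and so can those of Tyms, Ccnb1 and Ccnb2, so these values are uncertain.

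The ribonucleotide reductase subunits, which make deoxynucleotides, differed in some comparisons. Rrm2, the cell cycle regulated subunit, went from an implied 18.1 to 350.4 in 4T1-Tb (3.67 ± 0.30, adjusted p 1.00e-31) and from 160.3 to 429 in B16F1-Tb (1.33 ± 0.27, adjusted p 4.76e-07). In B16F10-Tb it stood at 0.48 ± 0.25 (adjusted p 0.215). In the hepatocytes with TNFα it fell by 0.47 ± 0.07 (adjusted p 7.79e-13), the 1 member that fell there, while Rrm1, its large partner, rose by 0.48 ± 0.08 (adjusted p 1.84e-09).

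Tk1, the thymidine kinase that salvages thymidine in S phase, went against most other members in B16F10-Tb and K7M2-Tb. It fell in B16F10-Tb from an implied level of 1593 to 801 (-0.79 ± 0.26, adjusted p 0.0232), in B16F1-Tb from 672 to 313 (-0.95 ± 0.31, adjusted p 0.000623) and in K7M2-Tb from 806 to 336 (-1.22 ± 0.18, adjusted p 3.64e-11). With K7M2-CL-EVPs it fell from 1599 to 946 (-0.54 ± 0.32, adjusted p 0.0116). It is the only member that fell in more than 1 comparison. With B16F10-CL-EVPs it rose instead, from 1157 to 1711 (0.44 ± 0.19, adjusted p 0.0138), and in 4T1-Tb it stood at -0.24 ± 0.23 (adjusted p 0.435).

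Tyms, which makes thymidylate by the other route, fell in B16F1-Tb (-0.52 ± 0.17, adjusted p 0.00129) and rose in 4T1-Tb (0.51 ± 0.15, adjusted p 0.00334). In K7M2-Tb, where Tk1 fell, Tyms stood at 0.03 ± 0.12 (adjusted p 0.858). The nucleotide genes thus differed in direction between themselves within single comparisons.

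**Figure D3:**
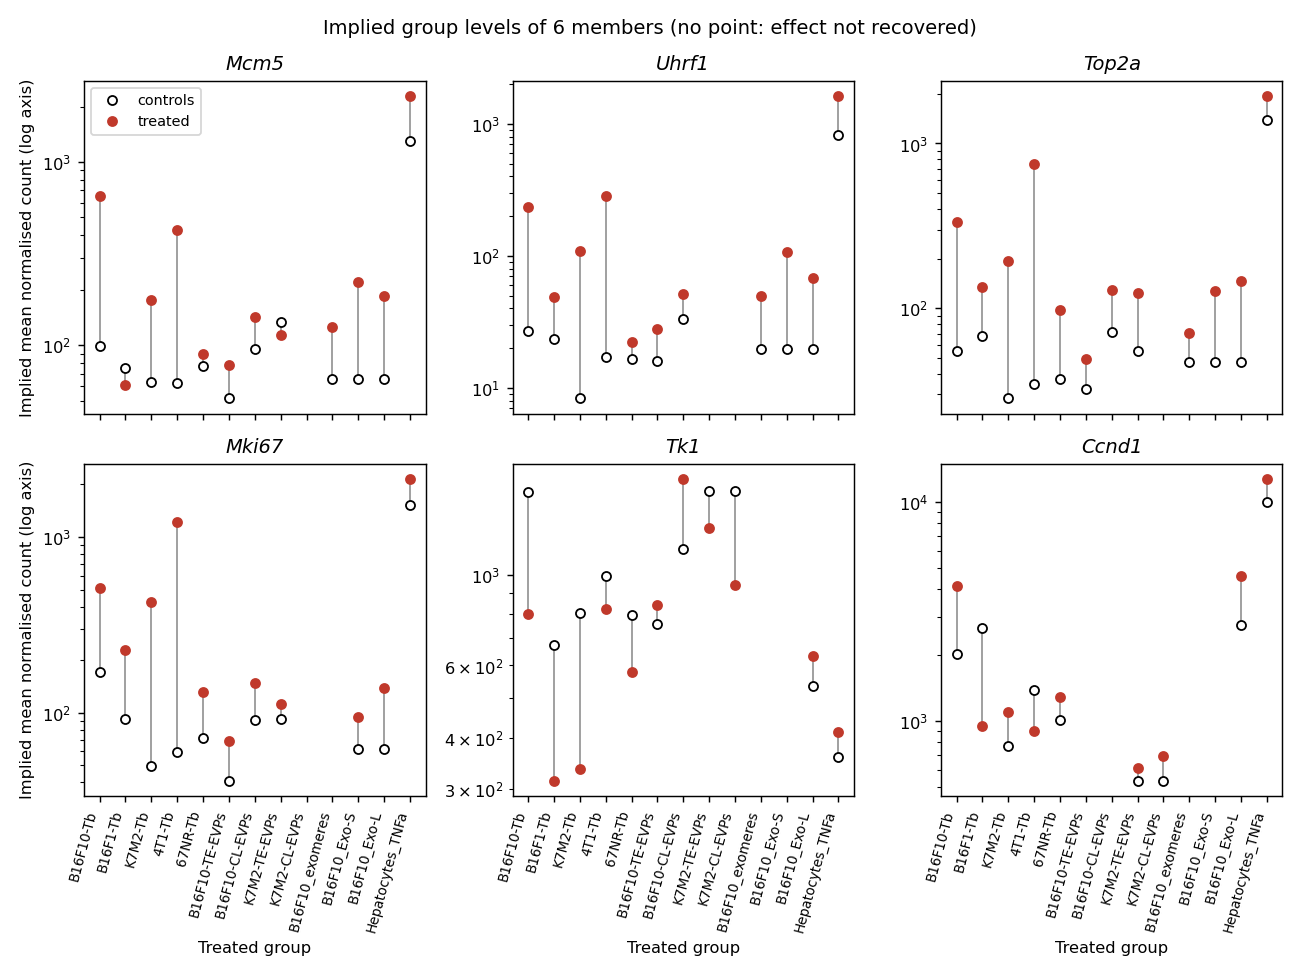
Implied mean normalised counts (log axis) in control (open) and treated (filled) groups for 6 members in each comparison; no point is drawn where the unshrunken effect could not be recovered. Mcm5, Uhrf1, Top2a and Mki67 lie above controls in B16F10-Tb, K7M2-Tb and 4T1-Tb, while Tk1 lies below them, and Ccnd1 falls in B16F1-Tb from 2673 to 956.

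The regulators of the step into S phase moved least regularly. E2f1, an activator of the family whose words are marked in the Mcm5 and Mcm6 promoters, rose in B16F10-Tb (1.23 ± 0.29), K7M2-Tb (0.97 ± 0.30) and 4T1-Tb (1.45 ± 0.23), and in B16F1-Tb it stood at 0.01 ± 0.21 (adjusted p 0.981). Ccnd1, cyclin D1, which answers growth signals in hepatocytes, fell in B16F1-Tb from an implied level of 2673 to 956 (-1.42 ± 0.23, adjusted p 6.37e-10). It rose in K7M2-Tb (0.38 ± 0.21, adjusted p 0.0390) and in the hepatocytes with TNFα (0.31 ± 0.09, adjusted p 0.000313). Of 13 comparisons, 10 left cyclin D1 short of the threshold.

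The E cyclins, partners of CDK2 at the start of S phase, each rose in 2 tumour comparisons. Ccne1 rose in K7M2-Tb (1.62 ± 0.44, adjusted p 6.26e-05) and 67NR-Tb (0.60 ± 0.19, adjusted p 0.0123), and Ccne2 rose in B16F1-Tb (0.66 ± 0.34, adjusted p 0.0151) and 4T1-Tb (0.69 ± 0.23, adjusted p 0.00928). Both rose in the hepatocytes with TNFα, where all 4 regulators did. In none of the 7 particle comparisons did Ccnd1, Ccne1 or Ccne2 pass the threshold.

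All 6 drivers of G2 and M phase rose in K7M2-Tb and 4T1-Tb, and all 3 tested rose in B16F10-Tb. Cdk1, the mitotic kinase whose promoter carries E2F, CHR and CCAAT words, went from an implied 58.4 to 367 in B16F10-Tb (1.84 ± 0.29, adjusted p 8.41e-08), from 21.5 to 86.7 in K7M2-Tb (1.94 ± 0.28, adjusted p 2.70e-12) and from 21.2 to 178 in 4T1-Tb (2.69 ± 0.29, adjusted p 4.19e-19). Ccnb1, its cyclin partner, rose by 3.27 ± 0.53 in K7M2-Tb, the highest deposited value of the mitosis members there (adjusted p 7.97e-11). None of the 6 drivers passed the threshold in B16F1-Tb, 67NR-Tb or B16F10-TE-EVPs; in 67NR-Tb Ccna2, cyclin A2, came nearest at 0.49 ± 0.19 (adjusted p 0.0507). At an unadjusted p under 0.05 (DESeq2) 1 driver was higher in each of B16F1-Tb and 67NR-Tb and 0 with B16F10-TE-EVPs.

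In the mitosis arm, 4 members have no p-value in the authors' deposited table of B16F10-Tb: Ccna2 (1.00 ± 0.32), Ccnb1 (1.13 ± 0.31), Cdc20 (1.52 ± 0.32), the activator of the anaphase ligase, and Bub1b (1.29 ± 0.31). DESeq2 leaves out p where a sample has an extreme count, and 244 genes of that table have a test score but no p. Of 14 erythroid markers found in it 9 are among them, and the tables do not show which samples held those counts. With p computed from the deposited score, all 4 would pass (adjusted p 0.0244, 0.00556, 9.58e-05 and 0.00102).

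Foxm1, the transcription factor of the mitotic wave, was the only mitosis member that rose with B16F10_exomeres (0.56 ± 0.48, adjusted p 0.0473). It rose by 0.76 ± 0.45 with B16F10_Exo-S (adjusted p 0.0146) and by 1.58 ± 0.33 with B16F10_Exo-L (adjusted p 9.07e-06). Both B-type cyclins and Cdc20 missed the threshold in all 3 classes, although Cdk1 passed it with Exo-S (0.48 ± 0.33, adjusted p 0.0265) and Exo-L (0.65 ± 0.33, adjusted p 0.00703).

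Deposited values are shrunken unequally between comparisons and so do not compare the size of rises. Among them, those of the mitotic kinases and checkpoint genes were highest in 4T1-Tb, all but Nek2. Bub1b, the spindle checkpoint kinase BUBR1, rose there by 3.64 ± 0.32 (adjusted p 8.19e-29), and Plk1, polo-like kinase, went from an implied 6.46 to 134 (3.53 ± 0.34, adjusted p 4.43e-23). Bub1, its checkpoint relative, rose there by 3.39 ± 0.38, and Aurkb, the centromere kinase of the chromosomal passenger complex, by 3.43 ± 0.32 (adjusted p 3.93e-25). In B16F10-Tb it was instead Nek2, a centrosome kinase, that rose most (2.41 ± 0.29, adjusted p 4.10e-14), from an implied 22.9 to 234. Aurka, the spindle pole kinase, followed there with 2.30 ± 0.29 (adjusted p 3.02e-12).

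With B16F10-CL-EVPs Aurkb was the lowest of the 6 mitosis members that rose (0.35), and with exomeres it missed the threshold. With the 2 exosome classes Aurkb had the highest deposited value of the mitosis members. Its deposited log2 fold change was 1.54 ± 0.40 with B16F10_Exo-S (adjusted p 4.42e-05) and 1.80 ± 0.37 with B16F10_Exo-L (adjusted p 3.06e-06), in the latter the highest of the 40. Bub1b rose with B16F10-TE-EVPs (0.57 ± 0.41, adjusted p 0.0140), B16F10-CL-EVPs (0.42 ± 0.30, adjusted p 0.0346), Exo-S and Exo-L, and in hepatocytes with TNFα (0.38 ± 0.17, adjusted p 0.00883). Birc5, survivin, stood out with B16F10-CL-EVPs, from an implied 39.96 to 81.4 (0.94 ± 0.22, adjusted p 0.000126), and missed the threshold in the other 6 particle comparisons. Nek2, high in B16F10-Tb, passed in no particle comparison.

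Chromosome and spindle genes gave the largest summed change of the 6 roles in 4T1-Tb and K7M2-Tb. The implied level summed over these 8 went from 267 to 4000 in 4T1-Tb (15 times), from 222 to 1113 in K7M2-Tb (5.01 times), from 533 to 1957 in B16F10-Tb (3.67 times), from 350.1 to 695 in B16F1-Tb (1.99 times) and from 371 to 531 in 67NR-Tb (1.43 times). Mki67, the Ki-67 protein that coats mitotic chromosomes, was the only member that rose with all 5 tumours. Its deposited log2 fold changes were 3.47 ± 0.35 in 4T1-Tb, 3.08 ± 0.26 in K7M2-Tb, 0.96 ± 0.31 in B16F10-Tb, 0.87 ± 0.60 in B16F1-Tb (adjusted p 0.0189) and 0.53 ± 0.18 in 67NR-Tb (adjusted p 0.0275). The implied levels went from 59.9 to 1223, 49.3 to 429, 170.1 to 511, 91.5 to 228 and 71.2 to 131, each pair to be read within its own comparison.

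Of the 6 members that rose in 67NR-Tb 4 belong to this group: Mki67, Top2a, the topoisomerase that untangles chromosomes (0.76 ± 0.19, adjusted p 0.00112), Kif11, the kinesin of spindle poles (0.63 ± 0.18, adjusted p 0.00725) and Cenpe, a kinetochore kinesin (0.78 ± 0.18, adjusted p 0.000744). Hmgb2, a chromatin protein of dividing cells, stood at -0.20 ± 0.15 there (adjusted p 0.373) but at 3.56 ± 0.25 in 4T1-Tb (adjusted p 3.67e-43). Of the others, Tpx2 and Kif20a passed the threshold in the 3 tumour comparisons alone, and Cenpf there and with B16F10_Exo-L. Tpx2, which builds spindle microtubules, rose by 3.31 ± 0.33 in 4T1-Tb and 2.24 ± 0.39 in K7M2-Tb, Cenpf, a kinetochore protein, by 2.71 ± 0.42 in K7M2-Tb, and Kif20a, a kinesin of cell division, by 1.93 ± 0.31 in B16F10-Tb.

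With B16F10_Exo-L 6 of the 8 chromosome and spindle genes rose, among them Top2a (1.58 ± 0.22, adjusted p 1.72e-11) and Mki67 (1.05 ± 0.26, adjusted p 0.000132). With B16F10_Exo-S 3 of the 8 did, Top2a (1.36 ± 0.23, adjusted p 6.93e-09), Hmgb2 and Kif11. In hepatocytes with TNFα Hmgb2 alone of the 8 rose (0.42 ± 0.14, adjusted p 0.00103), while Mki67 stood at 0.23 ± 0.25 (adjusted p 0.189) and Top2a at 0.20 ± 0.23 (adjusted p 0.246).

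Whether 2 conditions differ was tested for 6 pairs that share no samples, on unshrunken effects, with a normal two-sided test and Benjamini-Hochberg adjustment over all genes with a value in both tables. Each effect was measured in its own experiment, so experiment and condition cannot be told apart. The 4T1 and 67NR effects differed for 31 of 36 members with a value, all higher in 4T1-Tb, against 28.6% of all genes. Hmgb2 had the widest gap, 3.92 ± 0.275 against -0.25 ± 0.189, a difference of 4.17 ± 0.334. Rrm2 differed by 3.88 ± 0.457 and Uhrf1 by 3.62 ± 0.574. The 5 without a call were Tyms, Tk1, Ccnd1, Ccne1 and Ccne2, so every mitosis member with a value was called.

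B16F10-Tb and B16F1-Tb differed for 14 of 32 members, all higher in B16F10-Tb, against 6.21% of all genes. The largest gap was in Mcm5, 2.72 ± 0.604 against -0.30 ± 0.497, with a difference of 3.02 ± 0.782 (adjusted p 0.00504). The smallest p belonged to Cdt1 (difference 2.48 ± 0.436, adjusted p 5.28e-06), which rose in B16F10-Tb and was below 0 in B16F1-Tb. The others called were Mcm2, Mcm3, Mcm4, Mcm6, Mcm7, Tyms, E2f1, Ccnd1, Ccnb2, Cdk1, Aurkb and Nek2. Tk1, which fell in both, differed by 0.11 ± 0.436 (adjusted p 0.920), and Mki67 by 0.27 ± 0.704 (adjusted p 0.875). With errors 25% larger, 4 of the 14 calls are left: Mcm2, Mcm4, Cdt1 and Nek2.

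**Figure D4:**
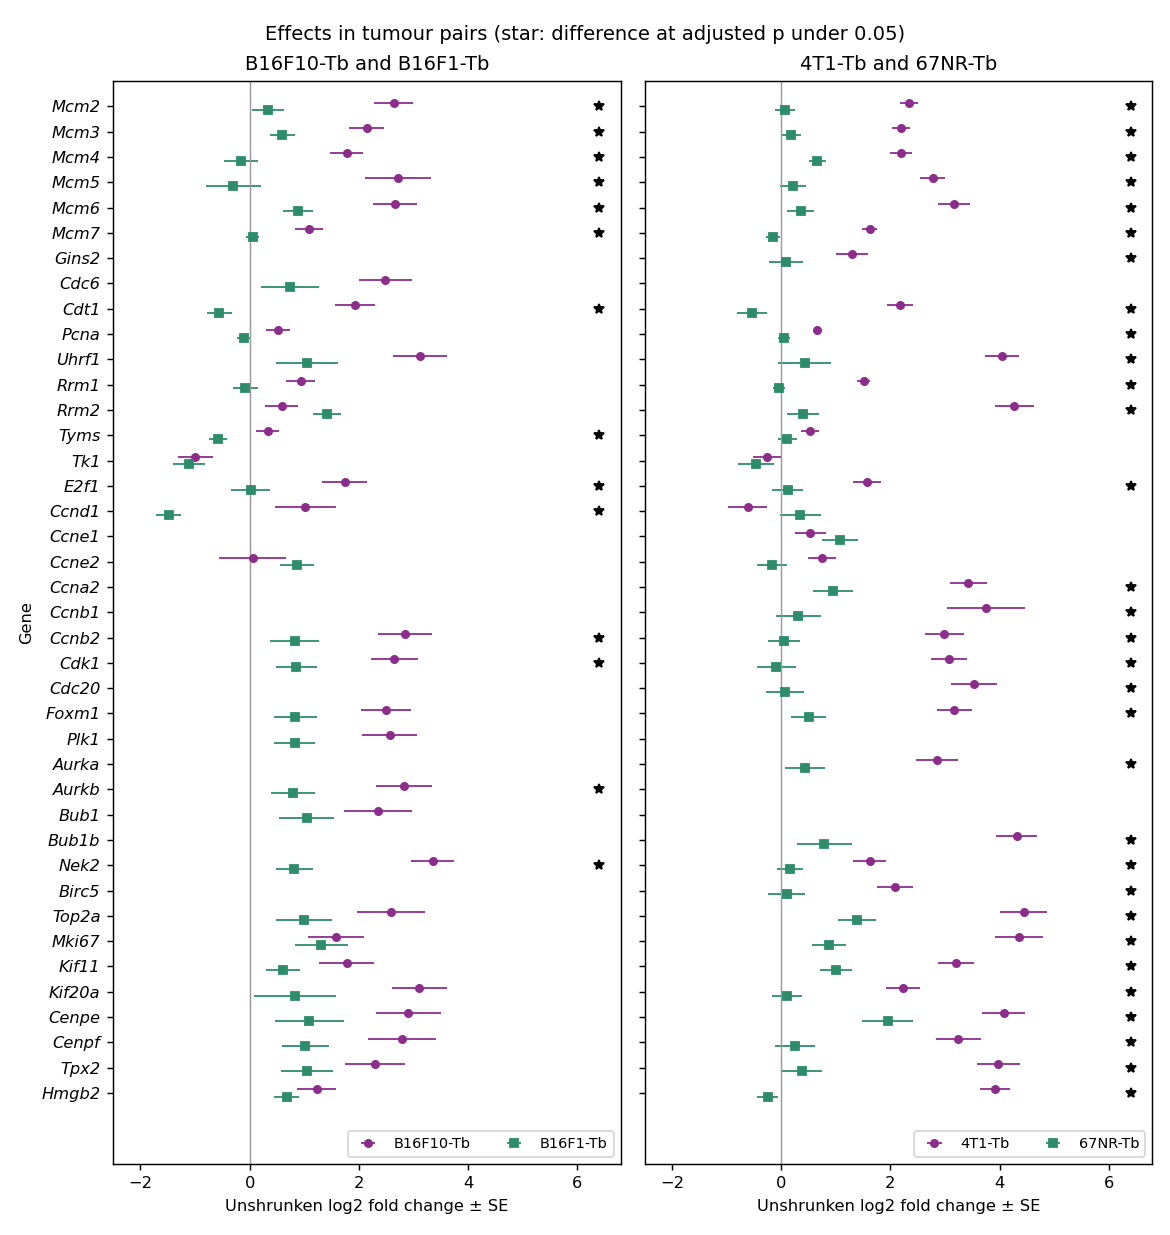
Unshrunken log2 fold changes ± standard error of each member in B16F10-Tb and B16F1-Tb (left) and in 4T1-Tb and 67NR-Tb (right), with stars where the difference had an adjusted p under 0.05. Nearly all 4T1-Tb points lie right of 67NR-Tb, whereas 7 of the 14 stars of the B16 pair are helicase genes, and Tk1 lies left of 0 with overlapping errors in both panels.

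Tumour and explant particles of the same line were compared too. For B16F10, 8 of 20 members with a value differed, all higher with the tumour, against 2.82% of all genes: Mcm2, Mcm3, Mcm4, Mcm6, Cdt1, Uhrf1, E2f1 and Nek2. With errors 25% larger 3 calls are left. With the deposited values used as they stand 32 members have a value and 20 are called, Uhrf1 no longer among them (adjusted p 0.0873). Nek2 differed by 2.63 ± 0.528 and Mcm6 by 2.37 ± 0.463. For K7M2, 13 of 20 differed, against 17.9% of all genes, with 12 higher with the tumour and Tk1 lower (-1.26 ± 0.175 against -0.30 ± 0.137, a difference of -0.97 ± 0.222). Mki67 had the widest K7M2 gap, 2.84 ± 0.341. Few mitosis members had a value with the particles, 7 in B16F10 and 6 in K7M2, so these counts speak mostly of replication genes.

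K7M2-Tb and 4T1-Tb, both in BALB/c mice at 4 weeks, differed for 23 of 40 members, a share above the 26.6% of all genes. In 21 the K7M2 effect was lower, with Plk1 (-2.61 ± 0.528), Hmgb2 (-2.52 ± 0.348) and Rrm2 (-2.48 ± 0.444) the widest. Ccnd1 (1.13 ± 0.412) and Ccne1 (1.29 ± 0.503) were higher in K7M2-Tb, but neither call holds with the deposited values as they stand (adjusted p 0.0620 and 0.0936) or with errors 25% larger (adjusted p 0.127 and 0.159). With errors 25% larger 12 calls are left, and with the larger of the candidate errors for every gene there are 36; there Ccne1 turns to -3.25 (adjusted p 0.337) and Tk1, 1 of the 21 lower, turns to 1.82 (adjusted p 0.652), neither called. Uhrf1 (-0.34 ± 0.488, adjusted p 0.658) and Ccnb1 (-0.32 ± 0.886, adjusted p 0.833) were not called, and their intervals are wide. B16F10-TE-EVPs and B16F10-CL-EVPs differed for none of 19 members, against 0.506% of all genes; at an unadjusted p under 0.05, 2 did, Birc5 (-1.28 ± 0.507) and Tyms (-0.28 ± 0.139).

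Many other genes of the pathway rose in 4T1-Tb, K7M2-Tb, B16F10-Tb and the hepatocytes with TNFα. Their lists were not picked by how the genes moved in these comparisons but were made with earlier results known. Of 42 other mitosis genes 41 rose in 4T1-Tb and 36 in K7M2-Tb, and 31 of 37 tested rose in B16F10-Tb; none fell in these 3. Of 26 other replication genes 21 rose and 2 fell in 4T1-Tb, 15 rose in B16F10-Tb and 11 in K7M2-Tb. In hepatocytes with TNFα 22 of 26 other replication genes rose and 20 of 42 other mitosis genes, so the split between the arms seen among the members was narrower there. Lig1, the DNA ligase of lagging strands, and Chaf1a, a chromatin assembly factor, were the top other replication genes in B16F10-Tb (1.69 ± 0.28 and 1.63 ± 0.28).

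In B16F1-Tb none of 26 other replication genes rose and 5 fell, a share near the 17.1% of all genes that fell there; 3 were higher at an unadjusted p under 0.05. Mcm10, which helps start the fork, fell by 1.76 ± 0.24 (adjusted p 5.77e-14), Gins4, a helicase part, by 0.56 ± 0.14 and Gmnn, the inhibitor of CDT1, by 0.45 ± 0.15. Cdkn1a, the p21 inhibitor of cyclin-dependent kinases, rose there by 4.51 ± 0.50 (adjusted p 4.21e-19), and by 2.55 ± 0.43 in 4T1-Tb, 1.86 ± 0.30 in B16F10-Tb and 0.71 ± 0.18 in 67NR-Tb. In hepatocytes with TNFα it fell by 0.24 ± 0.07 (adjusted p 0.000383). Other genes of its list of 20 cell cycle brakes went both ways. In B16F1-Tb Gadd45b (1.49 ± 0.27) and Btg1 (0.75 ± 0.15) rose. Tob1 (-1.09 ± 0.22), Rbl2 (-0.37 ± 0.11) and Gadd45a (adjusted p 1.56e-05) fell there. With TNFα Trp53inp1 (0.88 ± 0.08), Mdm2 (0.40 ± 0.05) and Gadd45b (0.33 ± 0.11) rose in hepatocytes. Btg2 (-0.52 ± 0.06) and Gadd45g (-0.57 ± 0.24) fell in them.

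Markers of other dividing or immune cells moved in the same comparisons (plot of median fold change by list). The neutrophil precursor list of 12 had 12 of 12 tested higher in K7M2-Tb and 7 of 7 in 4T1-Tb, with implied sums of 89.1 to 7393 and 106 to 40369. In B16F1-Tb 11 of 12 rose, 90.2 to 1079, while Cebpe fell (-0.56 ± 0.33, adjusted p 0.0339). In B16F10-Tb 4 of 6 rose, 357 to 1328. Mpo, the granule enzyme of precursors, rose by 8.70 ± 0.59 in K7M2-Tb, and Camp, a granule peptide, by 7.07 ± 0.38 in 4T1-Tb. In 4T1-Tb 5 markers (Mpo, Prtn3, Ms4a3, Chi3l3 and Cebpe) have a test score but no p-value, as Mpo has in B16F10-Tb. They are in neither the counts nor the sums, and which samples held extreme counts is not shown. In 67NR-Tb the 1 marker tested, S100a9, a calcium-binding protein of neutrophils, rose by 0.65 ± 0.19 (adjusted p 0.00664), and 1 is at 0. The part of such cells in the rise of the replication and mitosis genes was not tested.

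The erythroid precursor list of 15 moved most in B16F1-Tb, where 12 of 14 tested rose and 1 fell with an implied sum of 1809 to 17909. In K7M2-Tb 11 of 14 rose, 3844 to 6132, and in 4T1-Tb 4 of 11 rose and 1 fell, 3997 to 5627, with 3 markers at 0. In B16F10-Tb 2 were tested and neither passed. In B16F1-Tb 6 of 40 members were higher beside these rises. The part of erythroid cells in the members' values was not tested.

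Kupffer cell and macrophage markers rose with the tumours in 10 of 10 genes in K7M2-Tb (implied sum 4456 to 14697, 3.30 times) and in 4T1-Tb (6875 to 14853, 2.16 times). In B16F1-Tb 9 of 10 rose (5235 to 10122, 1.93 times), in 67NR-Tb 8 of 10 (3577 to 6185, 1.73 times) and in B16F10-Tb 1 of 8 tested (5831 to 8411, 1.44 times). They rose with the particles too: 10 of 10 with B16F10_Exo-L (implied sum 8001 to 21763), 7 of 10 with Exo-S (15215), 9 of 10 with exomeres (15808), 8 of 10 with B16F10-TE-EVPs and 7 of 10 with B16F10-CL-EVPs. T and NK cell markers rose in 9 of 10 with Exo-L, 5 of 10 with Exo-S and 5 of 10 with exomeres. In the K7M2 particle groups 1 of 9 macrophage markers rose with TE-EVPs and none with CL-EVPs. The part of these cells in the members' values was not tested.

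In the hepatocyte cultures 7 of 10 T and NK cell genes and 4 of 12 neutrophil markers were at 0, but markers of other liver cells were measured. Macrophage markers rose in 3 and fell in 4 of 8 tested with TNFα, with an implied sum over 7 genes of 18603 to 18988, and sinusoidal endothelial markers rose in 3 and fell in 2 of 8, from 6174 to 6467. S100a8, a neutrophil protein, rose by 4.06 ± 1.44 (base mean 10.7). The part of these cells in the members' values was not tested. Of 10 hepatocyte markers 9 fell with TNFα, with a median deposited log2 fold change of -0.60, where all 9 helicase members rose. Melanocyte, osteoblast and mammary basal markers summed to at most 8.41, 1.94 and 0.678 CPM in the livers, with no more than 1 gene higher in any liver comparison. No mammary basal marker had an adjusted p in 4T1-Tb or 67NR-Tb, so none could be called there. Runx2, of the osteoblast list, rose in 4T1-Tb (2.91 ± 0.33, adjusted p 8.32e-17). It also rose with B16F10_Exo-S (1.08 ± 0.52) and B16F10_Exo-L (1.71 ± 0.41). The part of tumour cells in the members' values was not tested.

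**Figure D5:**
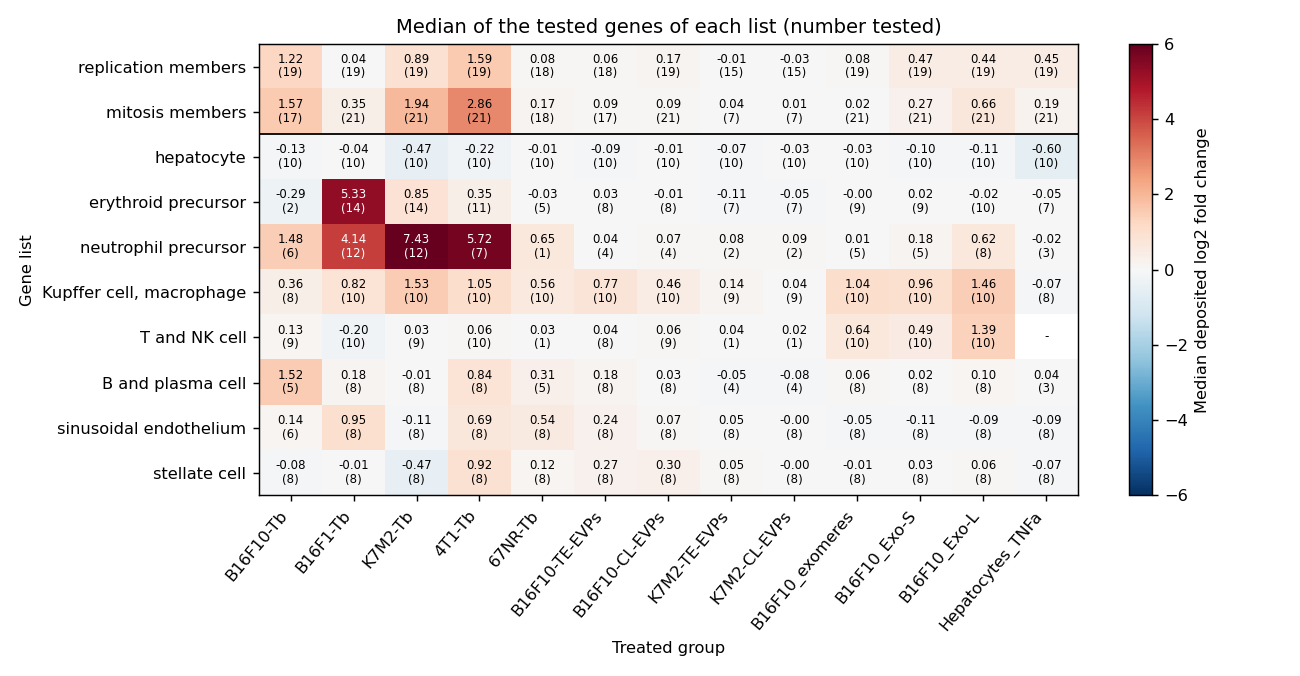
Median deposited log2 fold change (colour and upper number) of the tested genes of each list, with the number tested in parentheses, in the 13 comparisons. Mitosis members reach 2.86 in 4T1-Tb, neutrophil precursor markers 7.43 in K7M2-Tb and erythroid markers 5.33 in B16F1-Tb, where the mitosis members stand at 0.35.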

How the data were processed

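Livers of mice and cultured hepatocytes were sequenced from polyadenylated RNA, 89 samples in 23 groups, and 13 tables of group comparisons were used here. Per the submitters' processing notes the build was mm9 and the tools included DESeq2, TopHat2 2.0.11, bcl2fastq 2.19 and Cufflinks 2.1.1; their roles and the annotation are not given in the sources used here. Each table deposited by the authors holds a base mean (the mean normalised count, a signal), a shrunken log2 fold change with its error, and a p-value with its adjusted p-value. The tables of 4T1-Tb, B16F10-Tb and 67NR-Tb also hold the test score that the authors deposited. Values per sample were not analysed here, so depth per sample is unknown and no spread between samples could be computed.

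From these tables the members' calls were counted at an adjusted p under 0.05, beside the same counts over all tested genes. For tests between comparisons, the shrinkage was undone: a Cauchy prior was assumed for the 10 Ensembl tables, and a normal prior for the 3 RefSeq tables, a choice made after their scores were seen. In the Ensembl tables genes were kept only where the recovered score lay within 1 of that implied by the deposited p-value. The difference of effects was tested with a normal two-sided test, Benjamini-Hochberg adjusted over all genes with a value in both tables, and the procedure was tested on simulated data. Alternatives were a threshold of 0.01, an adjustment without the authors' filter, a base mean of at least 50, effects as deposited, and errors 25% larger. Others, chosen after seeing the data, were the other solution of the normal prior, no filter on the recovered score, and p computed from the deposited score.

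The members and all gene lists were chosen with earlier results of these data known. Every member could be named. In each comparison those with the smallest adjusted p of their role, and those that moved against the others, were preferred, and of each other list at most 3 genes per direction by smallest adjusted p. Mpo, Cdkn1a, and E2f7, Mybl2, Rbl1 and Myc among the other observations, were chosen after their values were seen. Python 3.11.15, numpy 2.4.6, pandas 2.3.3, scipy 1.17.1 and matplotlib 3.10.9 were used.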

Additional observations from a re-analysis of the deposited data

Results flagged for a closer look

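In 5 of the 6 pairs of comparisons tested, the effects on some of the replication and mitosis genes differed by a test of the difference itself (adjusted p under 0.05). The number of genes was 31 for 4T1-Tb against 67NR-Tb and 14 for B16F10-Tb against B16F1-Tb, all with the larger effect in the first of the pair. It was 8 for B16F10-Tb against B16F10-TE-EVPs, again all larger with the tumour. It was 13 for K7M2-Tb against K7M2-TE-EVPs, with Tk1 the single gene lower with the tumour. It was 23 for K7M2-Tb against 4T1-Tb, with Ccnd1 and Ccne1 higher in K7M2-Tb and 21 lower. The calls of Ccnd1 and Ccne1 are lost with effects as deposited (adjusted p 0.0620 and 0.0936) and with errors 25% larger (0.127 and 0.159), and that of Tk1 with the latter (0.0584). With the larger error for every gene Ccne1 went from 1.29 to -3.25 and Tk1, 1 of the 21 lower, turned to 1.82, neither called there. In each pair the effects come from separate experiments with their own controls, so experiment and condition cannot be told apart.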

How the results depend on the processing

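Of 111 values of the 32 counts under alternative settings 91 stayed within 1.5 times of the reported count and 20 did not. Such counts cannot show a change of sign. For single genes, 2 called members changed sign in K7M2-Tb against 4T1-Tb with the larger error for every gene. The other changes of sign were among members not called. At an adjusted p under 0.01 the members that fell went to 0 in B16F10-Tb and in K7M2-CL-EVPs, and those that rose to 2 in B16F1-Tb, 0 in B16F10-TE-EVPs, 2 in B16F10-CL-EVPs and 3 in B16F10_exomeres; the calls of B16F10-Tb against B16F1-Tb went to 9. With the adjustment over every gene with a p-value, 5 members rose in B16F10-CL-EVPs. A base mean of at least 50 removed genes by its construction and left 19 risen in K7M2-Tb, 3 in 67NR-Tb, 1 in B16F10-TE-EVPs, 12 in B16F10_Exo-S and 11 in B16F10_Exo-L. Errors 25% larger left 4 calls in B16F10-Tb against B16F1-Tb, 3 in B16F10-Tb against B16F10-TE-EVPs and 12 in K7M2-Tb against 4T1-Tb. Effects as deposited gave 20 calls among 32 members with a value in B16F10-Tb against B16F10-TE-EVPs, where 8 of 20 is reported. The larger error for every gene gave 17 calls there and 36 in K7M2-Tb against 4T1-Tb, and no filter on the recovered score gave 1 in B16F10-TE-EVPs against B16F10-CL-EVPs. The cause of these changes was not tested, apart from the base mean minimum. Leaving out each replicate in turn was not run, since values per sample were not analysed here. No paired analysis was possible because the tables hold comparisons of groups and not samples. Unknown depth and the filter on low base means limit the mitosis members most: 7 of 21 were tested in the K7M2 particle tables.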

Other observations

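Genes around the cell cycle that are not among the 40 members moved in ways the members' counts do not show. In B16F1-Tb E2f7, a repressor of the E2F family, rose by 2.22 ± 0.43 (log2 fold change and error, as all values here from the authors' deposited table of the comparison named), Mybl2, the B-MYB factor of the MuvB complex, by 1.12 ± 0.41 and E2f2, an activator, by 0.73 ± 0.44, while Pttg1, securin, fell by 0.59 ± 0.11. Those 3 risen genes also rose in 4T1-Tb, E2f7 by 2.66 ± 0.34, Mybl2 by 2.43 ± 0.28 and E2f2 by 2.26 ± 0.24. Pttg1 also fell with B16F10-TE-EVPs, by 0.26 ± 0.10. Mcm10 fell in B16F1-Tb and in 4T1-Tb (by 1.06 ± 0.21), although the MCM ring genes rose in 4T1-Tb. Rbl1, the pocket protein p107, rose by 2.13 ± 0.20 in 4T1-Tb, 1.14 ± 0.21 in K7M2-Tb, 1.12 ± 0.22 with B16F10_Exo-S and 0.67 ± 0.29 with B16F10_Exo-L. Myc, the growth factor-induced transcription factor, rose by 0.80 ± 0.49 with B16F10_Exo-S, 0.67 ± 0.51 with B16F10_Exo-L and 0.40 ± 0.08 in hepatocytes with TNFα.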
